A study of Arabidopsis thaliana with 39 samples.

Results

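The comparison concerned morchex, an Arabidopsis thaliana line in the Col-0 background that carries insertion alleles in all of its active MORC genes (morc1-2, morc2-1, morc4-1, morc5-1, morc6-3 and morc7-1), before a heat treatment (T0) and after recovery from it (T48). Members were taken by genotype and time point from the sample labels: 3 libraries at T0 (replicates 1, 2 and 3) and 2 libraries at T48 (replicates 2 and 3), which are 5 of the 39 samples of the series and 5 of the 16 RNA-seq libraries of the heat experiment. Plants were held at 37 °C for 0.5 h and then returned to normal growth temperature, and T48 was taken 48 h later, while T30 libraries were taken at 30 min of heat. For comparison served wild type Col-0 (WT), with 3 libraries each at T0 and T48, and morchex at T30, with 2 libraries. Each group holds the same alleles at both time points, so that the change from T0 to T48 within morchex is not a comparison of genotypes. No library of plants kept for the same time without heat was analysed, and the time after heat therefore cannot be told apart from plant age, time of sampling or handling at T48.

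MORC proteins are GHKL-type ATPases that compact chromatin and repress transposons and some genes. In the heat response, heat shock factors (HSFs) switch on chaperone genes within minutes, and the transcripts decay again when plants return to normal temperature. Recovery from stress can overlap with programs for immunity, protein folding in the endoplasmic reticulum (ER), growth and photosynthesis, and the gene groups below follow these roles. The labels do not say whether replicates are separate plants, so p-values measure only the spread between these samples.

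The measures analysed were expected counts, which RSEM estimates by assigning reads to genes, and TPM, the share of a transcript after division by its length, scaled to a total of 1000000 per library. The 5 libraries held 12752836 to 25054384 expected counts, with both T48 libraries (24374647 and 25054384) above the T0 libraries (12752836 to 17920398). Log2 fold changes come from edgeR's quasi-likelihood test with trimmed mean of M values (TMM) normalization, fitted over all 16 heat libraries, and a gene was called at an adjusted p (Benjamini-Hochberg) under 0.05 with a fold change over 2. TMM factors were 1.02 to 1.06 at T0 and 1.21 to 1.24 at T48, which lowers log2 fold changes relative to the TPM ratio of the same gene. Rises are therefore smaller, and falls larger in size, than by TPM. The difference in composition between the groups was large: 216 to 241 genes held 50% of all TPM at T0, against 518 and 531 genes at T48. T0 replicate 2 stood apart from the other T0 libraries in some groups, with the highest level of the 3 in 21 of 22 jasmonate genes and 16 of 20 mitosis genes. The 2 T48 libraries were close to each other but differed by more than sampling noise.

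The mutated genes were checked first. MORC6 was at 0.74, 1.29 and 1.14 TPM at T0 and at 0.59 and 0.43 TPM at T48 in morchex, below all 6 WT libraries (2.21 to 3.74 TPM). MORC1 was likewise lower in morchex (1.41 to 2.86 TPM over both time points) than in WT (4.62 to 7.23 TPM). MORC2 lay at 0.32 to 1.2 TPM in morchex against 2.08 to 5.74 TPM in WT, and MORC7 at 0.31 to 1.4 TPM in morchex, overlapping the WT T0 range (1.29 to 3.32 TPM) and below the WT T48 range (8.51 to 11.4 TPM). MORC4 went the other way, with 9.84, 11.5 and 12.1 TPM at T0 and 15.67 and 16.43 TPM at T48 in morchex, above the 2.68 to 4.23 TPM of WT at these time points. MORC5 was at or under 0.36 TPM in morchex and listed at 0 in WT, and was not tested. Transcript that remains from an insertion allele need not make a protein, and where the reads fell within each gene was not analysed. Of the 5 MORC genes tested, 1 fell between T0 and T48 (MORC6, log2 -1.35 ± 0.28 (SE), adjusted p = 0.000699).

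The labels call the material floral tissue. Most members of the floral marker lists below were under 1 TPM, while some were expressed. Of 13 floral MADS-box genes, which specify floral organs, 8 stayed under 1 TPM in all 5 libraries, and of 13 shoot and floral meristem genes 10 did so, with WUS, CLV3, STM, LFY and UFO listed at 0. Pollen coat genes summed to 0.79 to 1.62 TPM at T0 and to 0.58 to 1.05 TPM at T48 over 8 genes, and 9 of 17 tapetum genes were listed at 0 in all 5 libraries. RBCS1A, the small subunit of Rubisco, was the most abundant transcript of every library (34670 to 40100 TPM at T0, 21180 and 22160 TPM at T48). Floral MADS-box genes summed to 32.5 to 45.9 TPM at T0 and to 28.4 and 41.7 TPM at T48, so their sums overlapped between the groups. Of the 5 tested, 1 was called lower (SEP3, log2 -1.52, not called without T0 replicate 3 or without TMM factors). In TMM-scaled counts 3 of the 5 lay lower in both T48 libraries than in any T0 library, beside 35.7% of all genes tested. Of 3 tested meristem genes 1 was called lower (ANT, log2 -1.35), beside 12.4% of all genes tested. The tissue is therefore named here only by its label. In whole tissue, fewer cells of a type and less RNA per cell cannot be told apart.

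After 48 h of recovery, 2604 genes were higher and 2332 lower in morchex than at T0, which is 13.8% and 12.4% of the 18827 genes tested. At T48 the libraries lay outside the range of the T0 libraries for 2602 of the genes called higher and 2321 of those called lower, although 39.3% and 35.7% of all genes tested were separated in this way in each direction. Large changes were mostly increases: 554 genes rose and 50 fell by more than 16-fold. Without TMM factors the split moved to 3412 higher and 1588 lower, and the median of all genes moved from 0.03 to 0.27 on the log2 scale. Changes are therefore relative to the median gene.

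Among called genes whose T48 and T0 libraries did not overlap, the 10 with the smallest adjusted p that rose included 2 extensins. EXT4, an extensin of the cell wall, was at 0.55, 0.34 and 0.75 TPM at T0 and at 415.6 and 550.5 TPM at T48. Its log2 change was 9.38 ± 0.28 (SE, adjusted p = 3.63e-11). EXT3, another extensin, was at 2.32, 1.82 and 2.92 TPM at T0 and at 1074 and 1595 TPM at T48 (log2 8.80). AT4G12490, a lipid-transfer-like protein with close copies in the genome among which reads may be split, went from 1.14 to 1.39 TPM to 674.6 and 1248 TPM (log2 9.21). CRK6, a cysteine-rich receptor-like kinase, had a log2 change of 6.68, RLP41, a receptor-like protein, of 5.69, and LYM2, a chitin-binding LysM protein, of 3.29. AT4G10500, a salicylic acid hydroxylase, went from at most 0.16 TPM to 46.9 and 73.6 TPM (log2 9.12). GSR 1, a cytosolic glutamine synthetase, was already expressed at T0 with 35.4, 36.4 and 45.2 TPM and reached 590.0 and 623.7 TPM (log2 3.63). AT5G24200, an alpha/beta-hydrolase (log2 6.23), and the uncharacterized AT2G30930 (2.94) complete these 10 genes.

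Under the same condition, the 10 genes with the smallest adjusted p that fell included 5 whose proteins are known to act in the chloroplast. RBCS3B, a Rubisco small subunit, was at 27240, 25060 and 26950 TPM at T0 and at 9199 and 8572 TPM at T48 (log2 -1.90 ± 0.11 (SE), adjusted p = 9.87e-09). Rubisco small subunit genes are close copies, and the division of reads among them is uncertain. PSAH2, a subunit of photosystem I, had a log2 change of -1.90, TL29, a thylakoid lumen protein, of -2.08, and PRXQ, a chloroplast peroxiredoxin, of -2.29. FAP3, a plastid fatty acid binding protein, was at 48.2, 49.0 and 42.3 TPM at T0 and at 3.00 and 2.85 TPM at T48. Its log2 change was -4.31 ± 0.19 (SE, adjusted p = 1.35e-09). LP1, a lipid transfer protein, was at 1725, 1670 and 1830 TPM before and at 422.8 and 407.2 TPM after (log2 -2.40), and AT1G55260, of the same annotated superfamily, had a log2 change of -3.90. AT3G61920 (log2 -4.73), the cyclophilin-like AT3G15520 (-2.38) and the uncharacterized ASG8 (-2.91) were the remaining members.

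**Figure D1:**
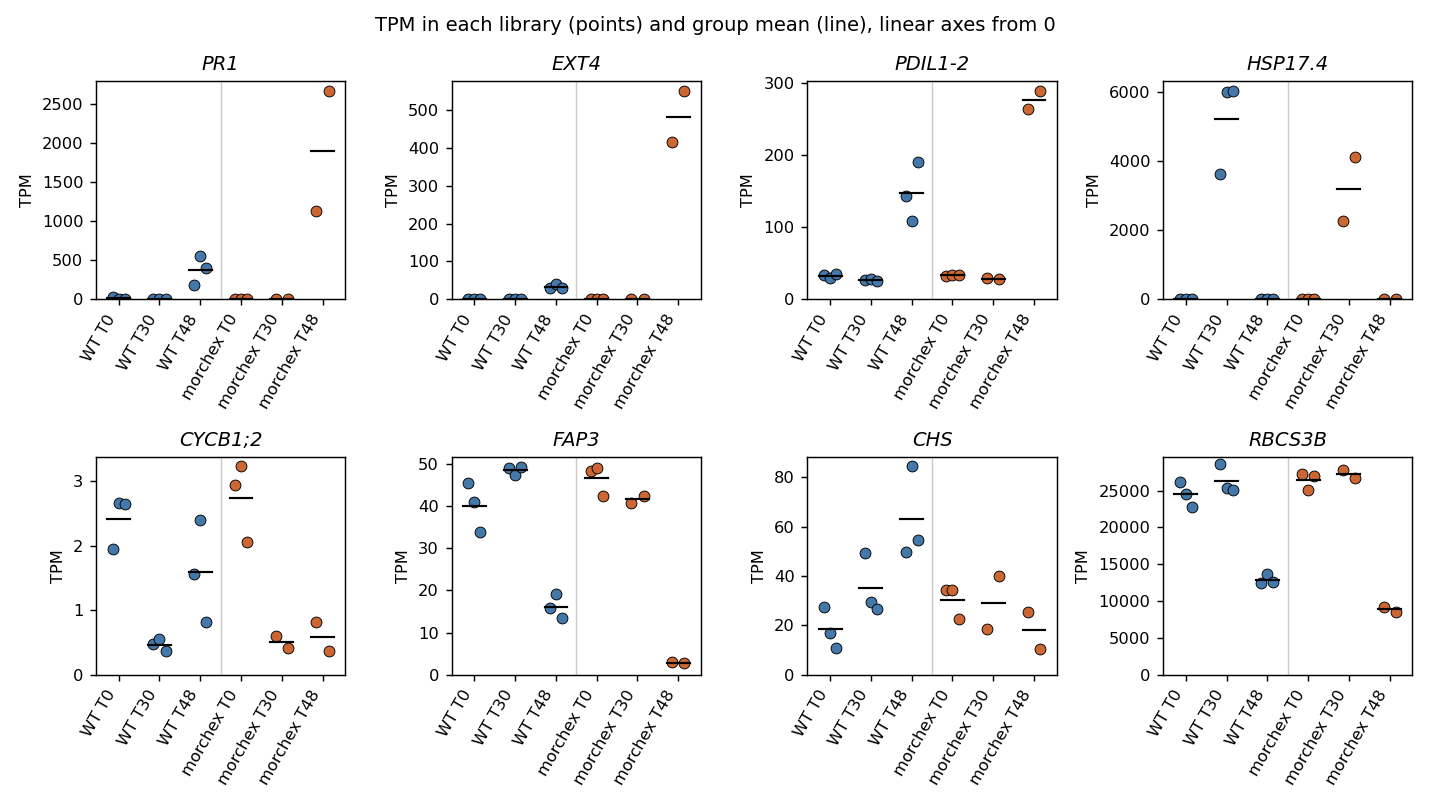
TPM of 8 genes (linear axes from 0) in each library of WT (blue) and morchex (orange) at T0, T30 and T48, with points for libraries and lines for group means. PR1, EXT4 and PDIL1-2 are high only in the T48 groups of these panels, HSP17.4 only at T30, and FAP3 and RBCS3B are lowest in the 2 morchex T48 libraries.

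Salicylic acid is the hormone of resistance to biotrophic pathogens, and its pathway runs from EDS1 signalling and hormone synthesis to pathogenesis-related (PR) proteins. All 18 members of this list were tested and all 18 rose at T48, beside 13.8% of all genes tested. Their median log2 change was 4.77, against 0.03 over all genes tested. The summed TPM of the list was 78.8 to 103.5 at T0 and at least 5035 at T48. EDS1, the lipase-like regulator at the head of the pathway, was at 5.32, 4.11 and 5.28 TPM at T0 and at 51.7 and 46.0 TPM at T48 (log2 2.99 ± 0.24 (SE), adjusted p = 1.28e-07). SARD1, a transcription factor that activates salicylic acid synthesis, was at 2.36, 1.48 and 1.55 TPM before and 67.5 and 62.8 TPM after (log2 4.84). WRKY18 and WRKY38, DNA-binding regulators of defence, had log2 changes of 4.70 and 8.02.

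At the end of the pathway, PR5, a thaumatin-like protein, was at 15.6, 7.77 and 15.5 TPM at T0 and at 773.3 and 1204 TPM at T48 (log2 5.91 ± 0.34 (SE), adjusted p = 1.10e-08). PR2, a glucanase, was at 10.2, 5.55 and 7.25 TPM and then at 1768 and 2543 TPM (log2 7.79). The T48 libraries exceeded every T0 library in both genes. PR1, the usual marker of this pathway and named here after its values were seen, was at 1.84, 2.02 and 2.58 TPM at T0 and at 1127 and 2657 TPM at T48 (log2 9.43). ALD1, which acts in pipecolic acid synthesis and was also singled out after its values were seen, had 0 counts over the 3 T0 libraries and 2308 over the 2 T48 libraries. It was thus at least 632-fold higher, against a floor of 3 counts over the T0 group. With ALD1 at that bound the median of the list stayed at 4.77.

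WRKY factors bind the W-box, searched here as TTGACC or TTGACT on both strands in the 250 bases before each RefSeq gene start. The letters occurred in 4 of the 18 promoters of the list, in 28.4% of all 27443 protein-coding promoters, in 41.2% of the 2503 promoters of genes called higher and in 21.8% of the 2253 of genes called lower. The promoters of PR5 (chr1:28177420-28177669, plus strand) and EDS1 (chr3:17758148-17758397, minus strand) are shown as members of the list that hold the letters, given 5′ to 3′ along the gene (RefSeq, TAIR10.1) with the match in capitals, which in both lies on the opposite strand.
PR5: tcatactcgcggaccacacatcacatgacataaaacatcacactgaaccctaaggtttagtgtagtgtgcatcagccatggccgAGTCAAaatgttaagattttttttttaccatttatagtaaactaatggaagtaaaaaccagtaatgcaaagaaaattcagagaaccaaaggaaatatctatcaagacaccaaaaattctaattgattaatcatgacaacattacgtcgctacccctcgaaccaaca
EDS1: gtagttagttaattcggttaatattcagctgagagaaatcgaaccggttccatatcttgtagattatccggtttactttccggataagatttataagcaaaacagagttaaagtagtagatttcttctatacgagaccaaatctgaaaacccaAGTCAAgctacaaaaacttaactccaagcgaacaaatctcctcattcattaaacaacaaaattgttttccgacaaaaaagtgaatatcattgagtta
A match of letters is a description of these windows and no binding was measured.

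Transcripts that respond early to touch or wounding rose in 9 of 10 tested genes (median log2 4.00), beside 13.8% of all genes tested. TCH3, a calmodulin-like calcium sensor, was at 8.37, 14.5 and 10.8 TPM at T0 and at 464.1 and 333.6 TPM at T48 (log2 4.90). TCH4, a xyloglucan-modifying enzyme, had a log2 change of 3.96, and ZAT10, a zinc finger repressor, of 4.63. The transcription factors ERF104, WRKY33 and WRKY40 had log2 changes of 3.69, 4.05 and 4.23. In all 10 genes of the list the T48 libraries exceeded the T0 libraries, beside 39.3% of all genes tested. These genes answer to handling within minutes, and how the T48 plants were harvested relative to T0 was not given in the sources used here.

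Unfolded protein response genes encode the folding machinery of the ER. All 13 members rose, beside 13.8% of all genes tested, with a median log2 change of 1.61 and a range of 1.19 to 8.78. PDIL1-2, a protein disulfide isomerase, was at 32.4, 34.1 and 32.9 TPM at T0 and at 264.0 and 289.4 TPM at T48 (log2 2.74 ± 0.16 (SE), adjusted p = 9.67e-09). PDIL1-1, its close relative, was at 69.3, 70.1 and 73.3 TPM and then at 369.6 and 417.0 TPM (log2 2.15). SHD, the ER form of HSP90, had a log2 change of 1.72, ERDJ3B, a co-chaperone, of 1.61, and CRT1B, a calreticulin, of 1.5. BIP3, the stress-induced ER form of HSP70, had 3 counts over the T0 libraries and 1827 over the T48 libraries, a ratio of 500.5 after scaling with a 95% exact interval of 171.0 to 2429 that covers counting error only. At T30, 7 of these 13 genes had been called higher against the same T0 libraries, beside 5.59% of all genes tested.

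The ER stress element, searched as CCAAT and CCACG with any 9 bases between them on both strands, occurred in 2 of the 13 promoters of the list and in 0.306% of all promoters. The G-box CACGTG occurred in 6 of the 13 and in 6.49% of all promoters. The promoter of PDIL1-2 (chr1:29126398-29126647, plus strand), the member with the smallest adjusted p, is shown with the ER stress element in capitals.
PDIL1-2: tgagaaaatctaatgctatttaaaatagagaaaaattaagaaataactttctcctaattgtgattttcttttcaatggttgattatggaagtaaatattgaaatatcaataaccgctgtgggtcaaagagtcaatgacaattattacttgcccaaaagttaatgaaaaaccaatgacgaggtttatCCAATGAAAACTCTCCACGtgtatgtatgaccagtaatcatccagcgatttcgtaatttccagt

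Genes of sugar starvation and darkness rose in 6 of 10 tested members (median log2 2.08), and none fell. Over all genes tested, 13.8% were called higher and 12.4% lower. SAG13, a senescence-associated dehydrogenase, was at 0.68, 0.58 and 0.48 TPM at T0 and at 216.2 and 290.3 TPM at T48 (log2 8.46). DIN10, a dark-inducible raffinose synthase family protein, was at 28.6, 26.1 and 23.1 TPM and then at 162.9 and 152.9 TPM (log2 2.29). The other members called were trehalose phosphate synthase family genes, with log2 changes of 2.18 for TPS8, 1.97 for TPS9, 2.23 for TPS10 and 2.47 for TPS11.

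Jasmonate and abscisic acid genes were mixed, and their counts stand beside 13.8% of all genes tested called higher and 12.4% called lower. Of 22 jasmonate genes 6 rose and 2 fell (median log2 0.35), and the number that rose was 3 when T0 replicate 1, T0 replicate 3 or either T48 library was left out and 8 without T0 replicate 2. TAT3, a tyrosine aminotransferase, was at 3.57, 6.31 and 5.21 TPM at T0 and at 1134 and 863.9 TPM at T48 (log2 7.33). AOC3, an enzyme of jasmonate synthesis, had a log2 change of 3.93. VSP2, a storage protein induced by jasmonate, was instead at 978.4, 2093 and 955.5 TPM at T0 and at 395.1 and 480.0 TPM at T48 (log2 -1.94), and its call was lost without T48 replicate 2 (log2 -1.83, adjusted p = 0.0747). Its close copy VSP1 may share reads with it. Of 19 abscisic acid, cold and drought genes 6 rose and 3 fell (median 0.25), among them HAI1, a phosphatase of the abscisic acid pathway (log2 3.83), CBF3, a cold-response factor (-2.81), and P5CS1, an enzyme of proline synthesis (-1.71). The number that rose was 4 without T48 replicate 2.

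The list of HSP70, HSP90, HSP101 and cochaperones held 14 heat-induced genes, of which GOLS1, a galactinol synthase, APX2, an ascorbate peroxidase, and HSA32, a heat-stress-associated protein, are not known as chaperones of these families. None of the 14 was called by edgeR at T48 (median log2 -0.17), while 2, GOLS1 (log2 -2.25) and HSA32 (-1.48), were lower at an unadjusted p under 0.05 (12.9% of all genes tested) and DESeq2 called 2 lower. Without those 3 genes, left out after values were seen, the median of the other 11 was -0.16. HSP101, the disaggregase needed for heat tolerance, was at 3.75, 4.00 and 2.80 TPM at T0, at 700.3 and 1208 TPM at T30 and at 2.89 and 3.23 TPM at T48 (log2 -0.51 ± 0.29 (SE), adjusted p = 0.154). Its T48 libraries lay inside the TPM range of T0. In TMM-scaled counts they lay below all T0 libraries, as in 7 of the 14 genes of the list, beside 35.7% of all genes tested. At T30 all 14 were called higher against the same T0 libraries (median 7.31), beside 5.59% of all genes tested.

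Of 14 small heat shock proteins, which hold unfolded proteins in solution, none rose and 2 fell at T48 (median log2 -0.23). Over all genes tested the shares were 13.8% and 12.4%. At T30 all 14 were higher (median 9.78), beside 5.59% of all genes tested. HSP17.4 was at 5.46, 5.29 and 3.48 TPM at T0, at 2261 and 4110 TPM at T30 and at 7.24 and 8.18 TPM at T48 (log2 at T48 0.37 ± 0.35 (SE), adjusted p = 0.393). AT2G29500 was at 27.6, 39.5 and 22.4 TPM at T0 and fell to 12.02 and 13.14 TPM at T48 (log2 -1.57). HSP18.2 was at 6.65, 40.7 and 3.52 TPM at T0 and at 2.01 and 2.68 TPM at T48 (log2 -3.11), and its high T0 value came from replicate 2. Without that library its log2 change was -1.47 (adjusted p = 0.158), and its call was also lost without T48 replicate 2 (-2.94, adjusted p = 0.0908) or T48 replicate 3 (-3.33, adjusted p = 0.0695).

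The list of heat shock factors held 12 HSFs and 2 other heat-response regulators, MBF1C and DREB2A, which were not called. Of the 12 HSFs, 2 were called higher and 1 lower at T48, beside 13.8% and 12.4% of all genes tested. HSFB1, a class B factor, was at 0.81, 1.74 and 1.15 TPM at T0, at 44.0 and 79.9 TPM at T30 and at 23.8 and 27.6 TPM at T48 (log2 4.09 ± 0.45 (SE), adjusted p = 2.42e-06). HSFB2A was at 1.06, 1.41 and 0.86 TPM and then at 5.38 and 5.13 TPM at T48 (log2 1.94). HSFA1E, a constitutive activator, had a log2 change of -1.01 that lost its call without T0 replicate 2, without T48 replicate 3, without the filter on low counts and without TMM factors. The heat shock element, searched as GAA, TTC and GAA with any 2 bases between each on both strands, was found in 2 of 14 small heat shock protein promoters and in 0.386% of all promoters. The promoter of HSP17.4 (chr3:16984868-16985117, minus strand), which moved between T0, T30 and T48 as given above, holds 2 matches in capitals.
HSP17.4: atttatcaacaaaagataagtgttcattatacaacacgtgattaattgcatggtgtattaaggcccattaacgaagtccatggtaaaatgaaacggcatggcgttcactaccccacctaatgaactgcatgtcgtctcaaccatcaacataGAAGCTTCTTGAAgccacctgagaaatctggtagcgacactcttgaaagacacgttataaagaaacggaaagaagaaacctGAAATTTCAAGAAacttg

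**Figure D2:**
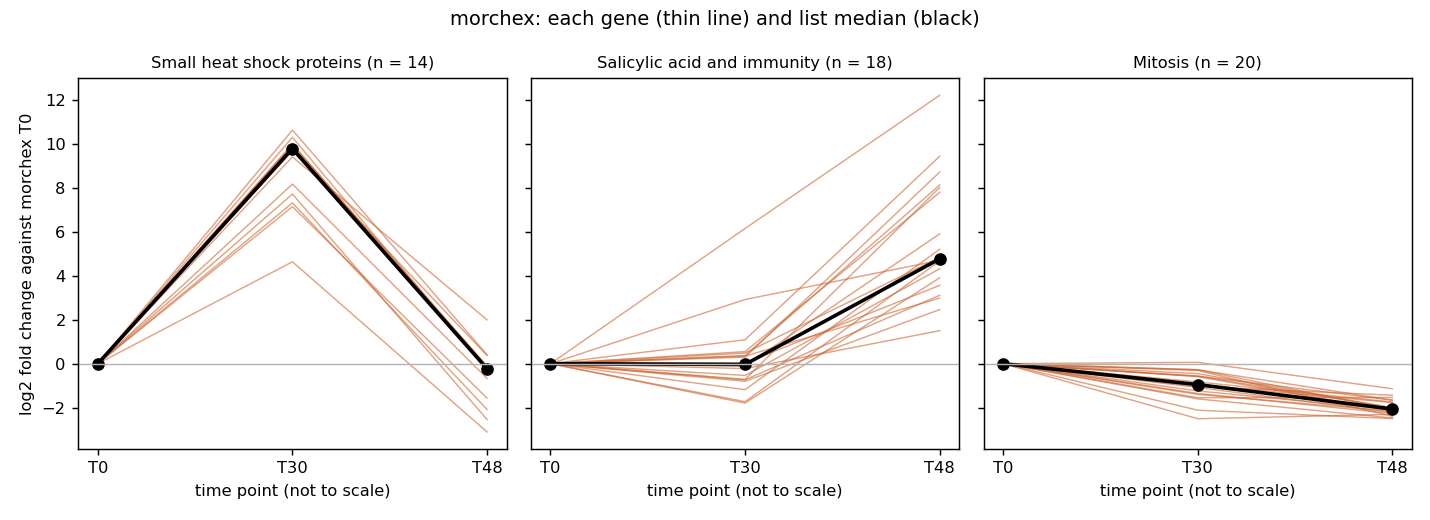
Log2 fold change against morchex T0 at T30 and T48 for each tested gene (thin lines) of 3 lists and the list median (black); the time axis is not to scale. Small heat shock proteins reach a median of 9.78 at T30 and -0.23 at T48, immunity genes -0.04 and 4.77, and mitosis genes -0.95 and -2.07.

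Cyclins and kinases of mitosis drive division of proliferating cells. Of 20 tested mitosis genes 17 fell and none rose (median log2 -2.07). The T48 libraries lay below the T0 libraries in 19, beside 35.7% of all genes tested. CDC20.1, an activator of the anaphase-promoting complex, was at 4.40, 6.04 and 4.50 TPM at T0 and at 1.15 and 1.19 TPM at T48 (log2 -2.40 ± 0.22 (SE), adjusted p = 4.64e-07). KNOLLE, the syntaxin of the cell plate, was at 5.13, 7.90 and 4.49 TPM and then at 2.05 and 1.44 TPM (log2 -2.05). CYCB1;2, a mitotic cyclin, was at 2.94, 3.24 and 2.06 TPM and then at 0.82 and 0.37 TPM (log2 -2.50), and CDKB2;1, a mitotic kinase, had a log2 change of -1.66. Replicate 2 held the highest T0 value in 16 of the 20 genes, and without it 15 fell. Genes of DNA replication moved less, with 1 of 16 called lower (CDC6, log2 -1.13, not called without T0 replicate 1) and a median of -0.49. Over all genes tested 12.4% were called lower.

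The core of the mitosis-specific activator element, searched as AACGG on both strands, occurred in 12 of 20 promoters of the list and in 20.6% of all promoters. The promoter of CYCB1;2 (chr5:1861704-1861953, minus strand) is shown because it holds 4 matches, in capitals.
CYCB1;2: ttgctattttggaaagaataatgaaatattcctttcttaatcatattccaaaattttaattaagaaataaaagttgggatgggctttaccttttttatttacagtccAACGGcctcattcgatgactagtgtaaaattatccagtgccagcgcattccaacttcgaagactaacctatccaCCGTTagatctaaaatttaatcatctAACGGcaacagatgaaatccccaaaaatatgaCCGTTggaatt

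Photosystem, antenna and Rubisco genes supply the largest share of leaf-type transcripts. Of 27 members, which include GAPA and GAPB of the Calvin cycle (both not called), 23 fell (median log2 -1.48), beside 12.4% of all genes tested. In all 27 the T48 libraries lay below the T0 libraries, beside 35.7% of all genes tested. Together they held 18.9% to 20.0% of all TPM at T0 and 9.79% and 8.72% at T48. LHCB3, an antenna protein of photosystem II, was at 6272, 6163 and 6512 TPM at T0 and at 1674 and 1138 TPM at T48 (log2 -2.49 ± 0.17 (SE), adjusted p = 3.38e-08). LHCA1, an antenna protein of photosystem I, had a log2 change of -1.76, and LHCB4.1, LHCB5 and PSBP-1 of photosystem II had log2 changes of -1.48, -1.68 and -1.45. Without TMM factors, 20 of the 27 were still called lower.

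Auxin and light growth genes were called lower more often than higher. Of 18 tested members of the phytochrome-interacting factor (PIF) and auxin list, 8 fell and 1 rose (median log2 -0.93). Over all genes tested, 12.4% were called lower and 13.8% higher. IAA5, an auxin-induced repressor, was at 11.5, 13.3 and 10.7 TPM at T0 and at 2.14 and 1.41 TPM at T48 (log2 -3.05). IAA29 was at 15.5, 25.6 and 22.1 TPM and then at 6.16 and 4.60 TPM (log2 -2.29). The count of 8 became 4 without T48 replicate 3 and 3 without TMM factors. In the flavonoid pathway 3 of 10 tested genes fell and none rose (median -0.95), beside the same shares of all genes tested. PAP1, the MYB activator of anthocyanin synthesis, was at 8.70, 16.3 and 5.04 TPM at T0 and at 0.90 and 0.93 TPM at T48 (log2 -3.74). Leaving out T48 replicate 3 left 1 flavonoid call, leaving out T0 replicate 1 left 2 and leaving out T0 replicate 3 gave 5. Of 17 clock genes 2 were called higher and 3 lower (median -0.10), near the 13.8% and 12.4% of all genes tested. Among them were RVE1, a morning MYB-like factor (log2 2.55), CCA1, a core morning repressor (-1.17, and -0.92 and not called without TMM factors), and CDF1, a repressor of flowering (-1.47). The count of clock genes that rose was 1 without T0 replicate 1, T0 replicate 3 or T48 replicate 2.

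**Figure D3:**
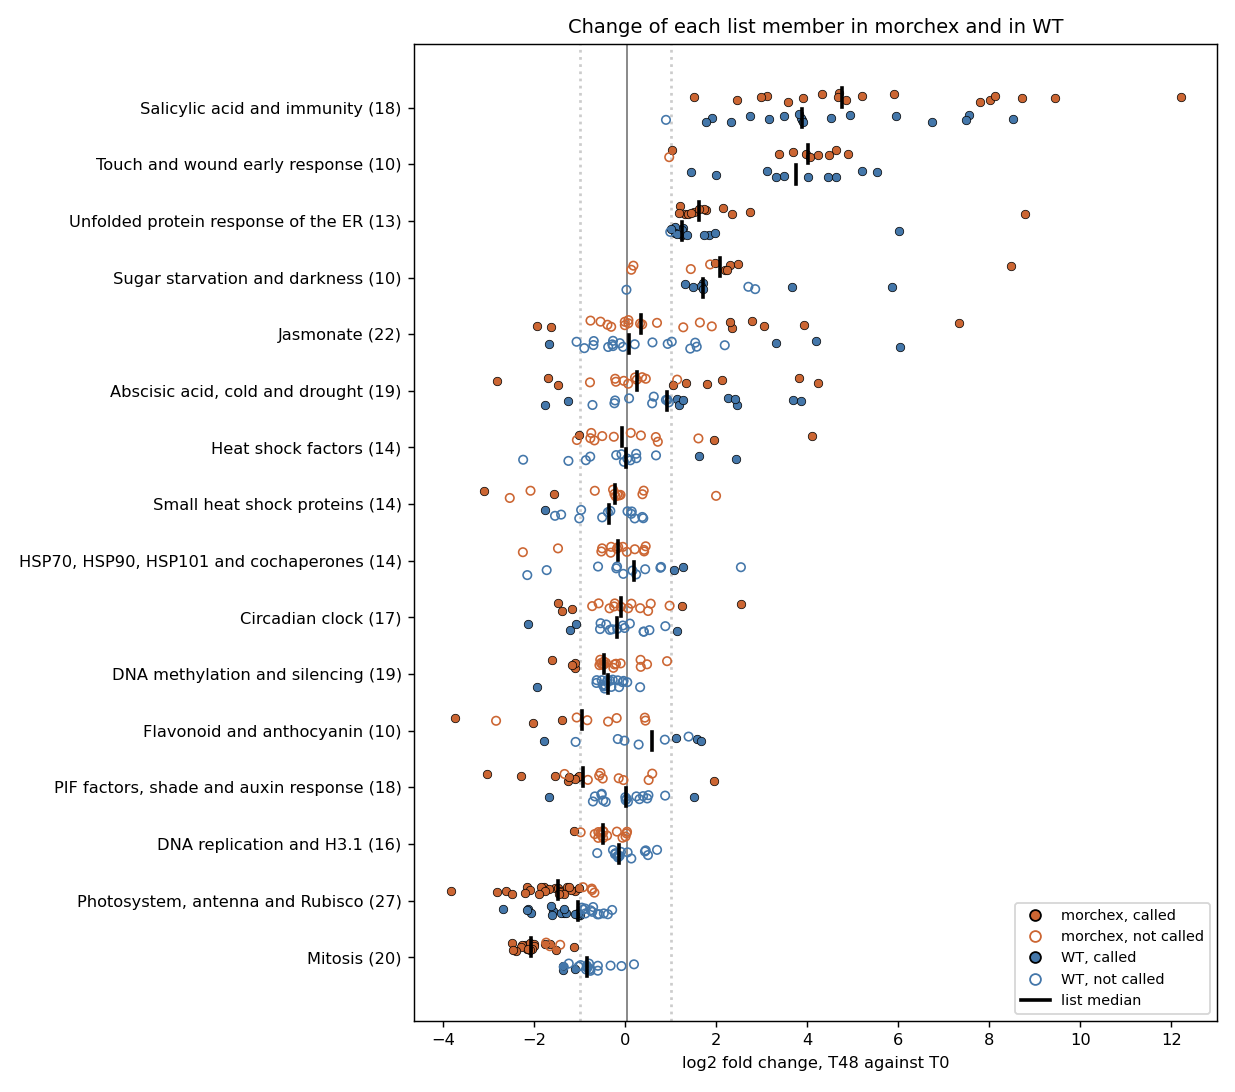
Log2 fold change from T0 to T48 of each tested member of 16 gene lists in morchex (orange) and WT (blue), filled where called, with list medians as black bars, the median of all genes as a grey line and a 2-fold change as dotted lines; the number tested stands in brackets. All 18 immunity genes and all 13 ER genes lie to the right in morchex, and 17 of 20 mitosis and 23 of 27 photosystem genes are called to the left.

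Of 19 genes of DNA methylation and silencing 4 fell and none rose (median log2 -0.47): ROS1, a DNA demethylase, went from 8.06, 9.21 and 9.29 TPM to 3.78 and 3.39 TPM (log2 -1.62), and AGO4, CMT2 and DDM1, which act in silencing, had log2 changes of -1.10, -1.11 and -1.17. Without TMM factors only ROS1 of these was called. With TMM factors 12.4% of all genes tested were called lower. Loci that are derepressed in morchex were above WT at both time points. SDC, silenced by DNA methylation in WT, was at 21.1, 32.7 and 26.8 TPM at T0 and at 20.22 and 15.88 TPM at T48 (log2 -0.89), against at most 0.80 TPM in any WT library of these time points. ABCG38, a transporter gene, was at 4.37, 4.68 and 4.32 TPM and fell to 2.11 and 2.47 TPM (log2 -1.28), against at most 0.02 TPM in WT. Of the TOPLESS and LEUNIG corepressors, TPR3 rose (2.91, 2.70 and 3.21 TPM to 9.25 and 9.38 TPM, log2 1.34). The other 7 were not called, beside 13.8% of all genes tested called higher. Reference transcripts were not called in 6 of 7 cases, and UBQ10, a polyubiquitin gene, rose from 537.3 to 569.1 TPM to 1915 and 1856 TPM (log2 1.47).

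Transcripts of the mitochondrial genome were higher at T48. Of 34 tested, 33 rose (median log2 3.92), beside 13.8% of all genes tested, and 28 to 31 were called when any 1 library was left out. Their summed share was 0.0035% to 0.0254% of TPM at T0 and 0.0509% and 0.0593% at T48, and T0 replicate 2 held the highest T0 share. Such transcripts mostly lack the tails by which this library kit selects mRNA, and the part of RNA selection in this difference was not tested.

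WT plants were sampled at the same times, and the difference of the T48 change between genotypes was tested as an interaction over the 11 libraries of the 4 groups, which the genotypes do not share. In WT, 1768 genes rose (9.39%) and 809 fell (4.3%). Of the genes called higher, 1558 were called in both genotypes, which is 59.8% of the morchex calls and 88.1% of the WT calls, and of those called lower 615 were called in both, 26.4% and 76.0% of the respective calls. The fold was larger in morchex for 1241 of these 1558 genes and for 457 of the 615, beside 12779 of all 18827 genes tested. Median log2 changes of the genes called in both were 2.88 in morchex against 2.26 in WT, and -1.83 against -1.39. The difference itself was called for 247 genes with a higher change in morchex (1.31% of the genes tested) and 449 with a lower change (2.38%). These counts rested on single libraries: without T48 replicate 3 of morchex they were 83 and 177, and over all libraries left out in turn they ran from 83 to 384 and from 177 to 649. Of genes called higher in morchex 223 had a difference called in the same direction, and of those called lower 391 did.

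EXT4 and EXT3 were among the genes with a larger increase in morchex. EXT4 reached 29.4 to 39.3 TPM at T48 in WT, well below the morchex libraries, and the difference was 3.93 ± 0.58 (SE, adjusted p = 0.0023) on the log2 scale. EXT3 reached 114.4 to 223.5 TPM at T48 in WT (difference 3.11, adjusted p = 0.00323). GSR 1 differed by 1.77 (adjusted p = 0.000709) and CRK6 by 2.02 (adjusted p = 0.00801). In the immunity list 17 of 18 genes rose in WT (median 3.87), beside 9.39% of all genes tested. A larger fold in morchex was seen in 17 of 18, beside 12779 of all 18827 genes tested. PR5 differed by 2.03 (adjusted p = 0.0101), which became 1.67 (adjusted p = 0.0723) without T48 replicate 3 of morchex. PR1 differed by 4.50 (adjusted p = 0.0204), with 1 of the WT T0 libraries at 26.4 TPM and the other two at 2.06 and 2.63 TPM.

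The 6 genes with the smallest adjusted p for the difference all fell more in morchex. AT3G61920 was at 29.7 to 30.3 TPM at T0 and 13.7 to 15.2 TPM at T48 in WT, while morchex went from 26.48 to 33.64 TPM to 1.54 and 1.24 TPM (difference -3.50 ± 0.25 (SE), adjusted p = 1.23e-05). FAP3 differed by -2.80 and LP1 by -1.92, and LP1 was at 1368 to 1765 TPM at T48 in WT. AT5G01015 went from 135.1 to 142.7 TPM to 17.3 and 16.7 TPM in morchex and was at 80.1 to 124.3 TPM at T48 in WT (difference -2.85). FAD8, a chloroplast fatty acid desaturase, differed by -1.49, with 122.6 to 151.7 TPM at T48 in WT against 55.3 and 52.0 TPM in morchex. AT5G13140, a pollen Ole e 1 allergen family gene, went from 84.8, 76.7 and 79.7 TPM to 7.47 and 3.84 TPM in morchex, and from 78.1 to 87.5 TPM to 39.6 to 62.0 TPM in WT (difference -3.33). It lies on the minus strand of chromosome 5 at 4170560 to 4171954, overlapping the end of MORC5 on the plus strand (4166609 to 4170643), and its T0 levels overlapped between the genotypes.

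Among the flavonoid genes, FLS1, flavonol synthase, was called in opposite directions in the genotypes. It was at 7.47, 9.06 and 6.88 TPM at T0 and 4.91 and 2.46 TPM at T48 in morchex, and at 3.74 to 6.15 TPM and then 9.7 to 17.38 TPM in WT. The groups did not overlap in either genotype, and the log2 changes of -1.40 and 1.11 differed by -2.51 (adjusted p = 0.00498). Without T48 replicate 3 the morchex change was -0.98 and was not called. CHS, the first enzyme of the pathway, was at 34.4, 34.4 and 22.7 TPM and then 25.6 and 10.5 TPM in morchex (log2 -1.07, adjusted p = 0.0578), and rose in WT from 11 to 27.27 TPM to 49.8 to 84.5 TPM. Its difference of -2.64 (adjusted p = 0.0175) became -2.14 (adjusted p = 0.101) without T48 replicate 3 of morchex. In the mitosis list 3 of 20 genes fell in WT (median -0.84), beside 4.3% of all genes tested. The difference was called in 2, CDC20.1 (-1.56, adjusted p = 0.00615) and CYCB1;4 (-1.83, adjusted p = 0.0453), beside 2.38% called lower over all genes tested. The difference of CYCB1;4 lost its call under 15 of 18 alternatives (-2.45, adjusted p = 0.0613 without T48 replicate 3). All 20 had the larger fall in morchex, where 12779 of all 18827 genes tested had the larger change. The PIF and auxin list had a median of 0.02 in WT, and IAA29 differed by -1.86 (adjusted p = 0.0131), which became -1.66 (adjusted p = 0.0863) without T48 replicate 3 of morchex.

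**Figure D4:**
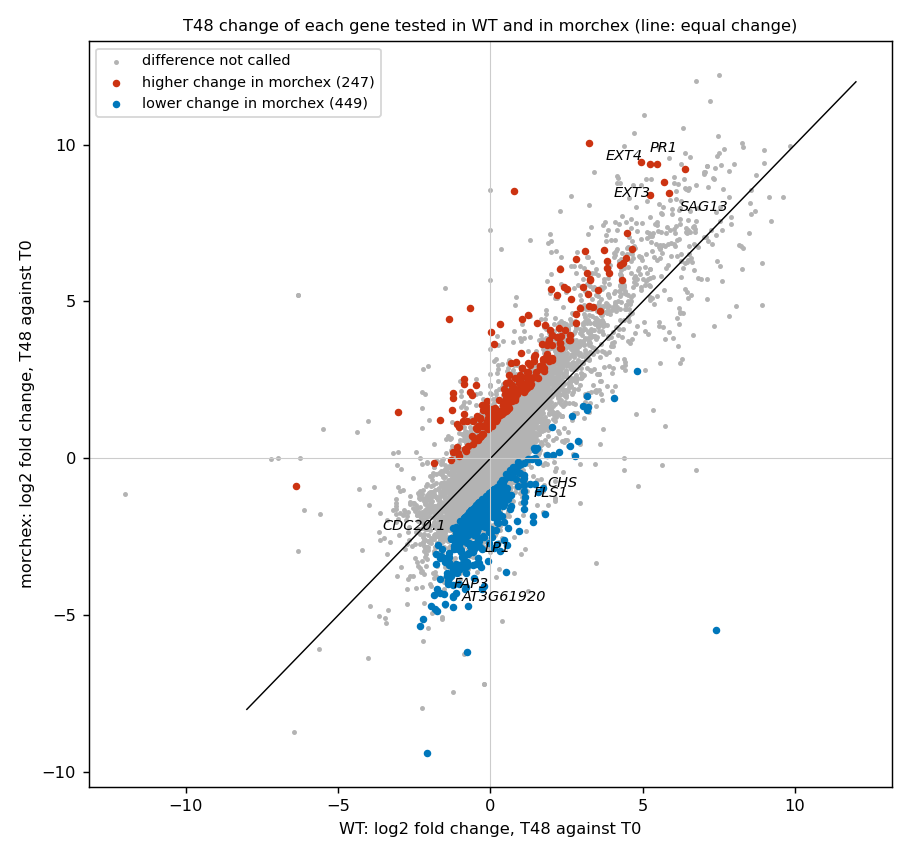
Log2 fold change from T0 to T48 in WT (x) and in morchex (y) for each of 18827 genes tested; red and blue points mark the 247 and 449 genes whose difference was called, grey the rest, and the line marks equal change. EXT4, EXT3, SAG13 and PR1 lie above the line, and FAP3, AT3G61920, LP1, FLS1, CHS and CDC20.1 lie below it.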

How the data were processed

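The authors aligned the reads of TruSeq stranded mRNA libraries to TAIR10 with Bowtie2 2.1.0 and quantified them with RSEM at default settings, and deposited 1 table per library with expected counts per gene and TPM, which RSEM divides by effective gene length and scales to a total of 1000000. After rounding to whole numbers, the expected counts went into the quasi-likelihood test of edgeR 4.0.16 (R 4.3.3), with TMM factors and its filter on low counts, in 1 fit over the 6 groups of 16 libraries, of 8606374 to 25054384 counts each, with no covariates. The comparisons were T48 against T0 in morchex, the same in WT, the difference between them, and T30 against T0 in morchex. Adjusted p-values are Benjamini-Hochberg values over 18827 genes. SEs are approximate and were derived from the test, as the size of the log2 change divided by the square root of its F statistic.

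Genes were named by rule: the 10 genes higher and the 10 lower with the smallest adjusted p among called genes with non-overlapping libraries, up to 6 members of each list by the smallest adjusted p, all MORC genes and released loci, and the 6 genes with the smallest adjusted p for the difference. The comparison and the gene lists were chosen with earlier results of these data known, so a list's count is no independent support. MORC names were tied to loci by matching the study's genotyping primers to the genome. Symbols and promoters are from RefSeq (TAIR10.1), in which 32835 of 33602 identifiers were found. DESeq2 1.42.0 and other normalizations, filters, thresholds, depths and library choices served as alternatives. On simulated counts for 18443 genes, the edgeR step called 96% to 100% of 50 genes per fold size changed by 1.5 or 2 on the log2 scale, and 4 unchanged genes. The changed genes were few, balanced up and down and not low in counts. No shift in composition and no outlying library was simulated, so these rates do not carry over to such conditions in the real libraries.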

Additional observations from a re-analysis of the deposited data

Results flagged for a closer look

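For 30 of the named genes the change from T0 to T48 differed between morchex and WT by the test of the difference itself (edgeR's quasi-likelihood test, adjusted p under 0.05 and a difference over 1 on the log2 scale). Of these, 15 kept the call under all 18 alternatives tried and 15 lost it under at least 1 of them.

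Among genes with a higher change in morchex, the log2 difference was 3.93 for EXT4, 3.11 for EXT3, 2.02 for CRK6 and 1.77 for GSR 1, and these 4 kept their calls throughout. AT4G12490 differed by 2.83, SAG13 by 2.60, PR5 by 2.03, AT5G24200 by 1.87, CYP79F2, an enzyme of glucosinolate synthesis, by 1.44 and RLP41 by 1.36. Each of these 6 lost its call without T48 replicate 3 of morchex, at log2 differences of 2.32 (adjusted p = 0.0772), 2.37 (adjusted p = 0.123), 1.67 (adjusted p = 0.0723), 1.75 (adjusted p = 0.0787), 1.47 (adjusted p = 0.107) and 1.26 (adjusted p = 0.143).

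Among genes with a lower change in morchex, the difference was -3.50 for AT3G61920, -3.33 for AT5G13140, -2.85 for AT5G01015, -2.80 for FAP3, -2.52 for AT1G55260, -2.51 for FLS1, -1.92 for LP1, -1.56 for CDC20.1, -1.49 for FAD8, -1.47 for AT3G15520 and -1.33 for PRXQ. The calls of these genes were kept throughout, except that the change of FLS1 within morchex was not called without T48 replicate 3 (log2 -0.98).

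The flavonoid genes MYB111 and CHS differed by -3.42 and -2.64, the auxin genes IAA29 and IAA3 by -1.86 and -1.53, and the cyclin CYCB1;4 by -1.83. The clock-regulated CDF1 differed by -1.45, the dehydration-responsive RD22 by -1.23, MORC6 by -1.21 and the released locus AT4G04293 by -1.02. Without T48 replicate 3 of morchex these 9 differences were not called, at -3.53 (adjusted p = 0.119), -2.14 (adjusted p = 0.101), -1.66 (adjusted p = 0.0863), -1.43 (adjusted p = 0.0651), -2.45 (adjusted p = 0.0613), -1.52 (adjusted p = 0.0613), -1.25 (adjusted p = 0.0716), -0.998 (adjusted p = 0.19) and -0.98 (adjusted p = 0.139). Leaving out a library from a group of 2 leaves 1 library, which the fit assumes to vary like the other groups.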

How the results depend on the processing

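With no limit on the fold change, 5326 genes were higher and 4729 lower at T48 in morchex, 3794 and 3347 in WT, 2854 and 2812 at T30 in morchex, and 712 and 961 for the difference between genotypes. With unadjusted p the difference was called for 575 and 809 genes. Without TMM factors the calls lower were 517 in WT at T48 and 2012 in morchex at T30. When any 1 library was left out, the morchex T48 counts ran from 2402 to 2563 higher and from 2063 to 2265 lower, and those of the difference from 83 to 384 and from 177 to 649, with both lowest values without T48 replicate 3 of morchex and both highest without T48 replicate 3 of WT. Against 247 and 449 with all libraries, the difference was also called for 119 genes higher and 295 lower without T48 replicate 2 of morchex, for 158 and 289 without T48 replicate 2 of WT, and for 136 and 164 genes higher without T0 replicates 1 and 2 of morchex. DESeq2 called 2534 and 2370 genes at T48 in morchex. Replicate numbers of T0 and T48 did not pair the samples (correlation of same-numbered deviations 0.051 for replicate 2 and -0.023 for replicate 3), and with a replicate block the counts were 2607 and 2295. Of 181 named genes with alternatives, 115 had the same outcome, called or not called, under all of them. For 66 the outcome differed under at least 1 alternative, by a call lost or gained, and 0 changed direction in a called value.

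Precision is limited by 2 libraries at T48 and by low counts in the MORC, mitosis and heat shock genes. No library of unheated plants at 48 h was analysed.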

Other observations

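Gene families read from RefSeq symbols and products, chosen after values were seen and given without a test, add to the picture. Of 46 tested WRKY genes 30 were called higher and none lower at T48 in morchex (median log2 2.82, against 29 higher in WT). Of 74 TIR-NBS-LRR genes, which encode intracellular immune receptors, 43 were higher in morchex and 20 in WT, with none lower in either. Of 36 cysteine-rich receptor-like kinase genes 27 were higher and 2 lower in morchex, and of 50 receptor-like protein genes 33 were higher and 1 lower, against 23 and 24 higher in WT. Of 26 kinesin genes, whose motors act in part in cell division, 13 were lower in morchex and 2 in WT, and of 43 SAUR-like genes, many of them induced by auxin, 24 were lower and 5 higher in morchex against 16 and 5 in WT. Photosystem II subunit genes were lower in 13 of 14 cases in morchex (median log2 -1.24) and 2 of 14 in WT (median -0.79). The difference between genotypes was called in none of these 14. Whether these counts differ between genotypes was not tested as a group. Gene by gene, the difference was called higher for 3 WRKY, 4 TIR-NBS-LRR, 2 cysteine-rich receptor-like kinase and 7 receptor-like protein genes. It was called lower for 2 kinesin and 5 SAUR-like genes, with none called the other way in these families. Over all genes tested, 13.8% were called higher and 12.4% lower in morchex, and 9.39% and 4.3% in WT. Other families were read in the same way. In morchex 12 of 49 MYB genes were higher and 9 lower, and 18 and 6 of 46 NAC genes. For xyloglucan endotransglucosylases these counts were 6 and 7 of 18, and for GDSL lipases 8 and 22 of 47. For aquaporins they were 2 and 11 of 35, and for expansins 2 and 6 of 19. For photosystem I subunits they were 0 and 12 of 14, and for chitinases 8 and 1 of 13.

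7 genes were called in opposite directions in the genotypes. AT4G04410, CYP81F3 and MYB3R-5 rose in morchex and fell in WT, and IQD18, CRF2, CHIL and FLS1 fell in morchex and rose in WT. CRF2, a cytokinin response factor, was at 7.37, 6.47 and 9.86 TPM at T0 and 3.28 and 6.01 TPM at T48 in morchex, against 5.19 to 9.59 TPM and then 12.35 to 20.45 TPM in WT (difference -2.16, adjusted p = 0.00528). CHIL, a chalcone isomerase-like protein, differed by -2.74 (adjusted p = 0.0122) and MYB3R-5, a MYB factor of the cell cycle, by 2.196 (adjusted p = 0.0105).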
